A study of Mus musculus with 44 samples.

Results

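A group of 10 transcription factors that specify or maintain the neurons of the striatum was followed through a mouse study of Retinoid X Receptor alpha (RXRa) in the nucleus accumbens. They are Bcl11b, Foxp1, Foxp2, Ebf1, Isl1, Sp9, Six3, Meis2, Zfp503 and Mef2c, chosen by name and matched to the Ensembl identifiers of both count tables, so the 10 genes are 10 of 55487 rows in each table. RXRa is a nuclear receptor that pairs with many other nuclear receptors, and it was overexpressed from viral vectors infused into the accumbens. In the bulk experiment, 4 libraries came from male accumbens given HSV-GFP and 4 from male accumbens given HSV-RXRa-GFP, a herpes simplex vector that carries RXRa. In the cell-type experiment, libraries labelled D1 or D2, after the dopamine receptor that marks each kind of projection neuron, came from mice given AAV9-CAG-DIO-EGFP or AAV9-CAG-DIO-EGFP-P2A-RXRa. A DIO vector is expressed only in cells that contain Cre recombinase. The D1 libraries comprised 5 female and 5 male EGFP controls and 4 female and 4 male RXRa libraries. The D2 libraries comprised 4 female and 5 male EGFP controls and 4 female and 4 male RXRa libraries. One more D2 female library carries a title and a vector label that disagree, and it entered no comparison. The D1 and D2 libraries were handled as nuclear RNA and were fitted apart from the tissue RNA of the bulk libraries. Age, strain, Cre line and whether D1 and D2 libraries came from the same animals are not given in the sources used here. The p-values therefore measure the spread between these libraries.

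Projection neurons of the striatum arise from the lateral ganglionic eminence and divide into a D1 class, which projects directly to the basal ganglia output nuclei, and a D2 class, which reaches them indirectly. Isl1, a LIM homeodomain factor, and Ebf1, a helix-loop-helix factor, act in the differentiation of the D1 class, whereas Sp9, a zinc finger factor, and Six3, a homeodomain factor, act in that of the D2 class. Zfp503, also called Nolz1, is a zinc finger factor of early striatal development. Foxp1 and Foxp2 are forkhead repressors, Bcl11b is a zinc finger factor needed for the maturation of both classes, Meis2 is a TALE homeodomain factor of the striatal lineage, and Mef2c is a MADS-box factor that controls synapse number in striatal and cortical neurons.

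Isl1 and Sp9 were called between D2 and D1 EGFP libraries of both sexes under each of the 10 other settings and in each of the 19 fits that left out a library, so the promoters of these 2 genes are shown. Each run is the 240 bases that end 10 bases before the RefSeq start site (GRCm38.p6), 5′ to 3′ on the gene's strand, and overlaps no annotated exon. Capitals mark CCAAT, on either strand, and the GC box GGGCGG, on either strand.
Isl1, chr13:116309699-116309938, minus strand: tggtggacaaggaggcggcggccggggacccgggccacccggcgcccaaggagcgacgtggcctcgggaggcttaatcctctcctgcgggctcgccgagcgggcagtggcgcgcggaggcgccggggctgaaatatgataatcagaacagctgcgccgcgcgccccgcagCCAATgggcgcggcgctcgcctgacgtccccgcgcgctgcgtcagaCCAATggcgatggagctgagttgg
Sp9, chr2:73271676-73271915, plus strand: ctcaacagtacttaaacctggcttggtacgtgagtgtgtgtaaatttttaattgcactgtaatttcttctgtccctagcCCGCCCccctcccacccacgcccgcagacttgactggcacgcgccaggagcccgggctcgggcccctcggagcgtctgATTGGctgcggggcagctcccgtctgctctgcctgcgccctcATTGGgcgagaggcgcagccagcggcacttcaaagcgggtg
Each of the 2 windows held CCAAT at 2 places, a motif found in 33.04% of 32851 promoter windows of the same length. GGGCGG was found at 1 place, in the Sp9 window, against 31.32% of all windows, and it overlapped neither CCAAT match. The hexamers AGGTCA and GGGTCA, which RXR heterodimers bind in pairs, were found in neither window, against 13.53% and 11.24% of all windows. GC bases made up 72.08% of the Isl1 window and 62.08% of the Sp9 window, against a median of 52.08%. Promoter entries were found for 9 of the 10 members, all but Foxp2.

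The 8 bulk libraries held 21567565 to 29167142 counts each, and the 35 sorted ones held 12211655 to 27757463. Counts of RXRa from the vector were 0 in bulk GFP libraries and at most 17 in sorted EGFP libraries, against 567 to 914 and 1216 to 13017 in the RXRa libraries. The sorted populations differed in their defining genes: summed over Drd2, Penk, Adora2a and Gpr6, the level was 89.5 to 229 CPM (counts per 1000000, on library sizes scaled by edgeR's TMM method) in D1 EGFP libraries and 753 to 1461 CPM in D2 EGFP libraries. All 4 of these genes passed the test as higher in D2, as did 3 of 6 D1 genes (Drd1, Tac1, Pdyn, Chrm4, Sfxn1 and Eya1) as lower. In the sorted libraries, 1576 autosomal protein-coding genes that had no count in bulk still received counts, which grew with the length of the whole gene body (slope 0.94 on a log2-log2 scale) and hardly with exon length (slope 0.09). The median of these silent genes, 0.303 to 0.595 CPM of the library total per kb of gene body, is called the silent-gene density below. A member's level per kb of gene body was divided by that density in the same library, on 1 scale. This length-corrected level is relative to silent genes. The slopes were fitted on silent genes only, so whether the ratio ranks expressed genes of different length was not tested.

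All 10 members passed the filter on low counts in both tables. By length-corrected level over all sorted libraries together, Meis2 (ENSMUSG00000027210, chr2:115863064-116065839) stood highest, at 5.72 ± 2.72 times the silent-gene density (SD, n = 35). It was followed by Bcl11b (ENSMUSG00000048251, chr12:107910403-108003602) at 2.69 ± 0.91, Foxp1 (ENSMUSG00000030067, chr6:98925338-99522721) at 2.37 ± 0.88 and Foxp2 (ENSMUSG00000029563, chr6:14901349-15441977) at 2.30 ± 0.65 times the density. Six3 (ENSMUSG00000038805, chr17:85613608-85629302) stood at 1.96 ± 0.80, Mef2c (ENSMUSG00000005583, chr13:83504034-83667080) at 1.95 ± 0.55, Zfp503 (ENSMUSG00000039081, chr14:21983959-21989601) at 1.74 ± 0.51 and Isl1 (ENSMUSG00000042258, chr13:116298281-116309689) at 1.69 ± 0.57 times the density. Sp9 (ENSMUSG00000068859, chr2:73271925-73284706) at 1.46 ± 0.67 and Ebf1 (ENSMUSG00000057098, chr11:44617317-45008091) at 1.298 ± 0.135 times the density were lowest. This order pools groups that differ: Sp9 was lowest in D1 EGFP and D1 RXRa libraries (1.00 and 1.07 times the density), and Ebf1 was lowest in D2 EGFP and D2 RXRa libraries (1.19 times in each). The step from Meis2 to Bcl11b was larger than the SD of either, and every other pair of neighbours in this order lay within the larger of their SDs.

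In bulk, per kb of exon, the order was different. Bcl11b at 43.1 ± 5.5 and Meis2 at 38.3 ± 3.9 CPM per kb of exon led (SD, n = 8), followed by Foxp1 at 18.6, Six3 at 15.7, Zfp503 at 11.3, Mef2c at 10.3, Sp9 at 8.02, Foxp2 at 5.78, Isl1 at 4.77 and Ebf1 at 1.36. Ebf1 had 206 to 483 counts per bulk library. In uncorrected CPM of the sorted libraries, Foxp1 and Foxp2, which span 597 kb and 541 kb, reached 432 to 1207 and 430 to 913 CPM, whereas Zfp503, which spans 5.64 kb, reached 2.98 to 7.16 CPM. Counts behind these values ranged from 49 to 133 per sorted library for Zfp503, 76 to 371 for Isl1, 90 to 277 for Sp9 and 152 to 457 for Six3, so these 4 members carry more counting error than the rest.

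**Figure D1:**
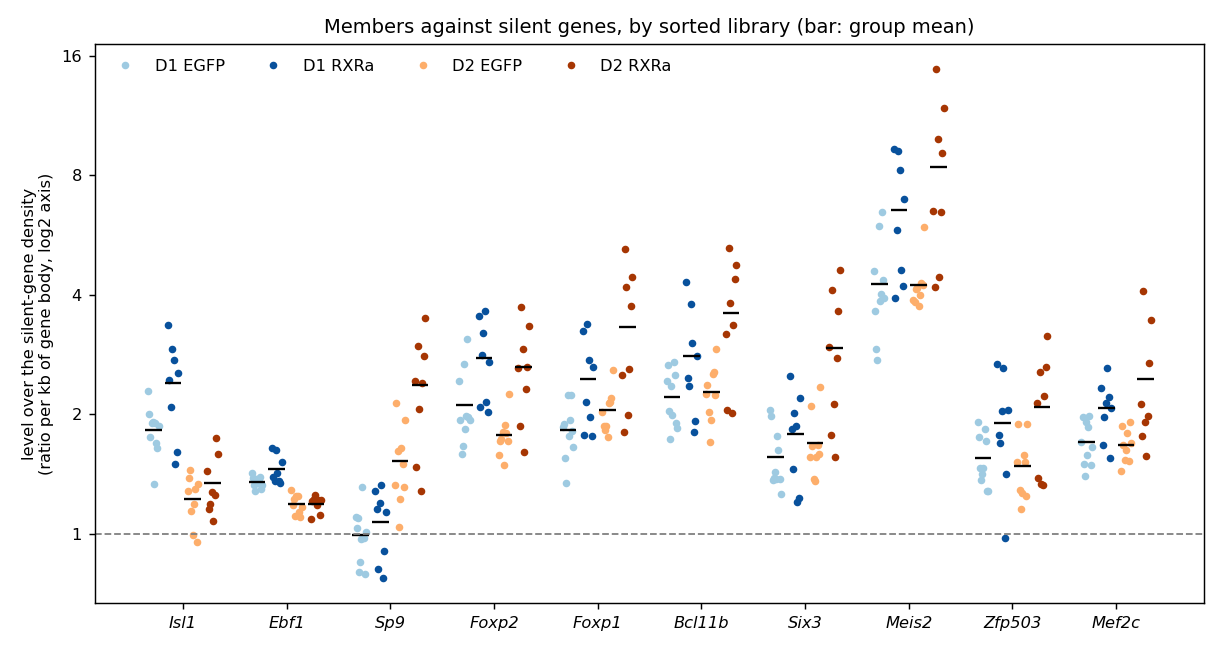
Level of each member in every sorted library divided by the silent-gene density of that library, per kb of gene body, on a log2 axis; points are libraries, bars are group means and the dashed line marks a ratio of 1. Sp9 sits around 1 in D1 libraries and above it in D2 libraries, Isl1 shows the opposite order, and Ebf1 stays between 1.09 and 1.64 throughout.

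The comparison of D2 with D1 under the control vector asks which members distinguish the populations without RXRa. Isl1 was lower and Sp9 was higher in D2, and the other 8 members did not pass the test. Isl1, the D1 factor, ran from 7.82 CPM through a median of 10.7 to 12.3 CPM in the 10 D1 EGFP libraries and from 6.02 through 7.42 to 8.68 CPM in the 9 D2 EGFP libraries. A single D1 male library at 7.82 CPM lay within the range of D2, and D2 libraries of up to 8.68 CPM lay within the range of D1. The log2 fold change of Isl1 was -0.51 ± 0.09 (SE), a level 0.70 times that of D1 (edgeR quasi-likelihood test, adjusted p = 0.0047). Sp9, the D2 factor, ran from 5.47 through 6.41 to 8.07 CPM in D1 and from 7.53 through 10.1 to 14.6 CPM in D2. A single library of each population lay within the range of the other, and its log2 fold change was 0.68 ± 0.13, a level 1.598 times that of D1 (edgeR adjusted p = 0.0064). These 2 of 10 members compare with 53 of 43902 genes called, or 0.121% of the background.

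Sex gave 2 separate sets of libraries for the same comparison. In females, Isl1 stood at 10.5 to 12.3 CPM in D1 and 7.38 to 8.68 CPM in D2, and Sp9 at 5.47 to 7.32 and 7.53 to 14.6 CPM. In males, Isl1 stood at 7.82 to 11.4 CPM in D1 and 6.02 to 7.81 CPM in D2, and Sp9 at 5.48 to 8.07 and 8.36 to 11.9 CPM. Neither member overlapped between populations within a sex. Ebf1 did not overlap in females either (262 to 271 against 245 to 256 CPM), while 3.37% of all genes did not overlap in females and 1.65% in males. The log2 fold changes of Isl1 were -0.51 in females and -0.52 in males, and those of Sp9 were 0.71 and 0.64. Within a sex no member passed the edgeR test over all genes, where 0.0501% of genes in females and 0.0752% in males did. Unadjusted, 2 members in females and 3 in males had a p under 0.05, against 1886 and 2886 of 43902 genes. Neither DESeq2 nor limma called a member within a sex. Over both sexes, 0 members lacked overlap, against 0.134% of all genes.

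Against the silent-gene density, Sp9 stood at 1.00 ± 0.16 times the density in D1 EGFP libraries (SD, n = 10), the level of genes with no count in bulk, and at 1.53 ± 0.35 times in D2 EGFP libraries (n = 9). Isl1 stood at 1.83 ± 0.25 times in D1 and 1.23 ± 0.17 times in D2. Sp9 shares its locus with Cir1, a protein-coding gene on the opposite strand, and the strand setting of the counting is not given in the sources used here, so reads of the pair cannot be told apart. Isl1 is also a factor of cholinergic interneurons. Chat, Slc5a7, Slc18a3 and Lhx8, which mark those cells, summed to 64.2 to 71.8 CPM in D1 EGFP and 63.6 to 76.8 CPM in D2 EGFP libraries, with 0 of 4 called by edgeR and none at 0 in all libraries of a group; 1 of the 4 had an unadjusted p under 0.05. Genes of cortical excitatory neurons (Slc17a7, Neurod6, Tbr1, Emx1 and Neurod2) were lower in D2 in 5 of 5, with 1 called, and summed to 29.5 to 53.4 CPM in D1 EGFP and 23.8 to 32.2 CPM in D2 EGFP libraries. Chat averaged 36.9 CPM in sorted and 22.4 CPM in bulk libraries, and Slc18a3 averaged 0.46 and 13.5 CPM. Sorted sums can thus hold counts like those of silent genes and are no measure of cell content. The part of either list in these differences was not tested.

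The other factors assigned to a class in development had smaller log2 fold changes. Ebf1 lay at 1.09 to 1.64 times the silent-gene density in the sorted libraries. Its log2 fold change was thus computed mostly on counts at that density. Ebf1 ran from 256 through 270 to 278 CPM in D1 EGFP and from 220 through 246 to 268 CPM in D2 EGFP, a log2 fold change of -0.12 ± 0.05 that did not pass (edgeR adjusted p = 0.37). With the silent-gene density as a covariate, Ebf1 passed (-0.15, edgeR adjusted p = 0.026), as did Foxp1 (0.28, edgeR adjusted p = 0.045). Six3 ran from 10.6 through 11.6 to 15.2 CPM in D1 and from 11.4 through 13.7 to 17.7 CPM in D2, a log2 fold change of 0.17 whose interval of 2 SE either side reached from -0.08 to 0.43. Foxp2 had a log2 fold change of -0.20 (interval -0.42 to 0.02), Foxp1 of 0.21 (-0.03 to 0.44) and Bcl11b of 0.08 (-0.14 to 0.31). Meis2 had a log2 fold change of 0.05 (-0.27 to 0.37), Mef2c of 0.03 (-0.18 to 0.24) and Zfp503 of 0.00 (-0.26 to 0.26), whose sign changed with the scaling.

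**Figure D2:**
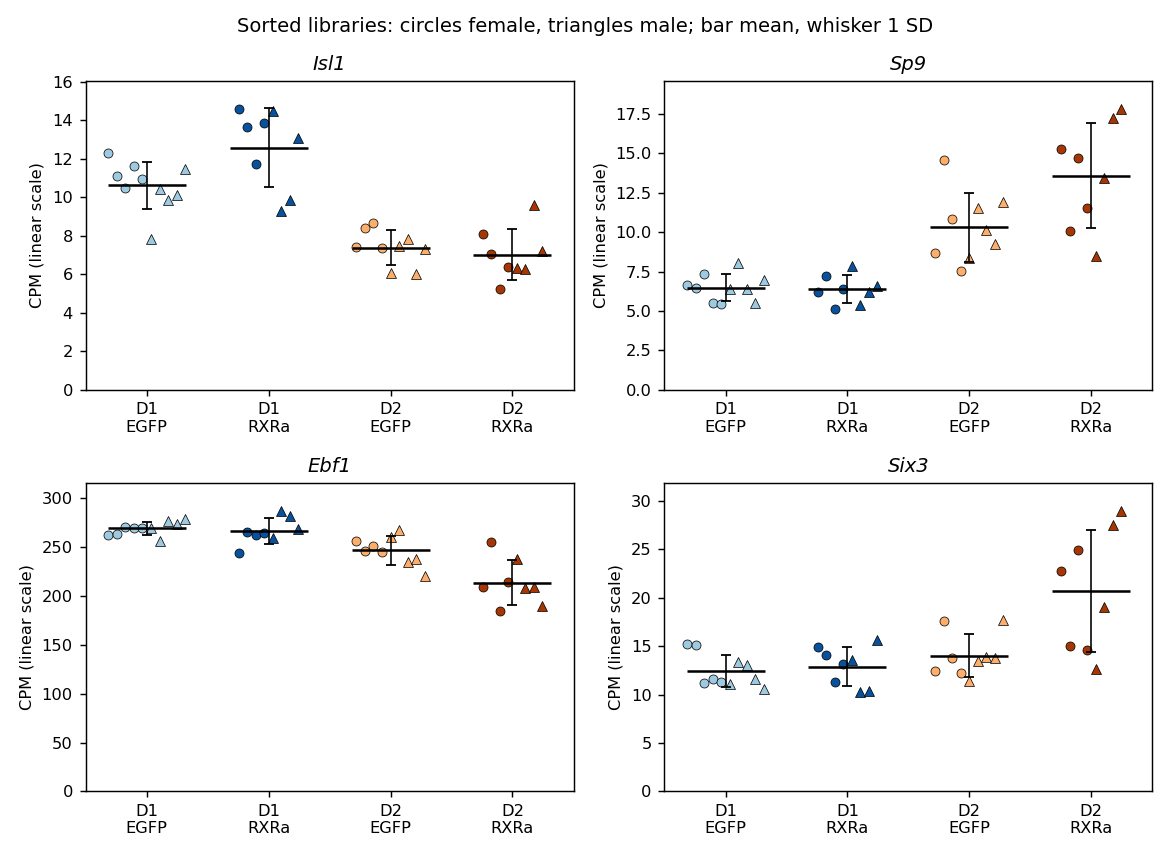
CPM of Isl1, Sp9, Ebf1 and Six3 in each of the 35 sorted libraries, on linear axes from 0, by population and vector; circles are female and triangles male libraries, bars are means and whiskers 1 SD. Isl1 is lower and Sp9 higher in D2, and the D2 RXRa libraries of Six3 spread from 12.6 to 28.97 CPM.

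Under the RXRa vector, the same comparison called 4 members: Isl1 and Ebf1 lower, Sp9 and Six3 higher in D2. The background was much larger here, with 8.36% of genes called. Isl1 ran from 9.27 through 13.4 to 14.6 CPM in D1 RXRa libraries and from 5.24 through 6.72 to 9.58 CPM in D2 RXRa libraries, a log2 fold change of -0.85 ± 0.10 (edgeR adjusted p = 2.1e-06). A single D2 male library, at 9.58 CPM, lay within the D1 range, and the D1 library at 9.27 CPM lay within the D2 range. Sp9 ran from 5.14 through 6.30 to 7.87 CPM in D1 and from 8.46 through 14.1 to 17.8 CPM in D2, a log2 fold change of 1.08 ± 0.13, or 2.11 times the D1 level (edgeR adjusted p = 5.7e-06). Sp9 was the only member whose groups did not overlap, against 0.125% of all genes.

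Ebf1 ran from 244 through 265 to 287 CPM in D1 RXRa and from 185 through 209 to 255 CPM in D2 RXRa libraries, with 1 D2 library at 255 CPM inside the D1 range. Its log2 fold change was -0.32 ± 0.05 (edgeR adjusted p = 0.0013). Six3 ran from 10.2 through 13.4 to 15.6 CPM in D1 and from 12.6 through 20.9 to 28.97 CPM in D2, with 3 D2 libraries inside the D1 range and a log2 fold change of 0.67 ± 0.14 (edgeR adjusted p = 0.011). Six3 overlaps its antisense neighbour Six3os1, whose reads cannot be told apart without the strand setting. The call of Six3 was lost without the D2 female library of lowest silent-gene density (edgeR adjusted p = 0.051), and without the 2 D2 RXRa libraries of lowest density (0.54, edgeR adjusted p = 0.15). The calls of Ebf1 and Six3 were lost when the RXRa libraries were fitted alone (edgeR adjusted p = 0.14 for each, with 34 of 41715 genes called). Bcl11b (0.33 ± 0.12, edgeR adjusted p = 0.073) and Foxp1 (0.38 ± 0.13, edgeR adjusted p = 0.054) did not pass, and DESeq2 called both. The comparisons of D2 with D1 under EGFP and under RXRa use different libraries; the change between them is the same quantity as the difference between the RXRa effects in D2 and D1, which passed for no member.

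**Figure D3:**
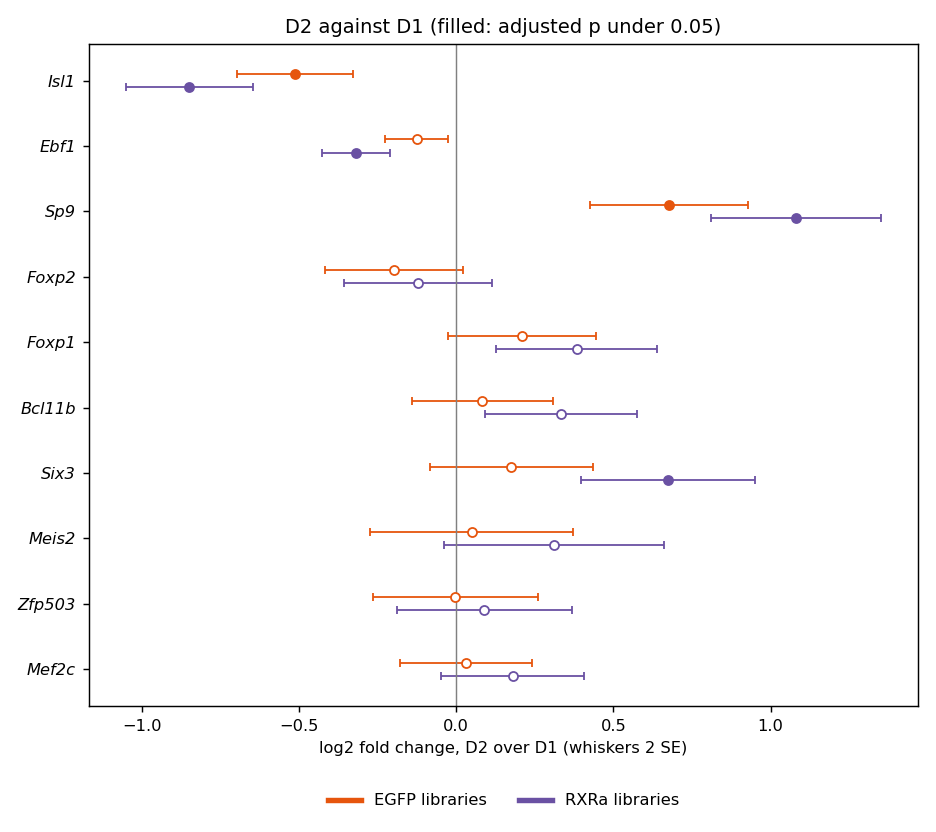
log2 fold change of D2 over D1 for each member under EGFP and under RXRa, from edgeR; whiskers are 2 SE and filled points have an adjusted p under 0.05. Isl1 and Sp9 are filled under both vectors, at -0.51 and 0.68 under EGFP and -0.85 and 1.08 under RXRa.

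The comparison of RXRa with EGFP within D2 asks what the receptor does to these factors in the D2 population. Called higher were 7 members and lower 1, against 22.1% of genes called at all and 14.9% called higher. Meis2 ran from 400 through 446 to 578 CPM in D2 EGFP libraries and from 457 through 763 to 1158 CPM in D2 RXRa libraries, a log2 fold change of 0.73 ± 0.17 (edgeR adjusted p = 0.011). Six3 had a log2 fold change of 0.55 ± 0.14, Foxp1 of 0.46 ± 0.12, Bcl11b of 0.43 ± 0.12, Sp9 of 0.39 ± 0.13, Foxp2 of 0.33 ± 0.12 and Mef2c of 0.30 ± 0.11 (edgeR adjusted p from 0.012 to 0.047). Ebf1 was lower, at -0.21 ± 0.05 (edgeR adjusted p = 0.0125), while Isl1 at -0.10 ± 0.10 and Zfp503 at 0.24 ± 0.14 did not pass. In no member were the groups separate, against 0.0638% of genes. The median log2 fold change was 0.36 over the 10 members and -0.04 over all genes tested. Of the 9683 genes called, 6548 were higher; on library totals alone 11391 were called, 2057 of them higher, the median of all genes was -0.20 and 5 members were called.

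The levels of Meis2 and Ebf1 differed between D2 RXRa libraries of low and high silent-gene density. The density was 0.551 ± 0.026 CPM per kb in D2 EGFP (SD, n = 9) and 0.432 ± 0.089 in D2 RXRa libraries (n = 8), and it was 0.529 ± 0.047 in D1 EGFP (n = 10) and 0.4656 ± 0.0701 in D1 RXRa libraries (n = 8). In the D2 female library of lowest density, 0.303 CPM per kb, Meis2 was at 1158 CPM, and in the D2 male library of 0.333 CPM per kb it was at 955 CPM. In the D2 RXRa libraries at 0.406 and 0.409 CPM per kb Meis2 was at 877 and 887 CPM, and in those at 0.447 and 0.463 it was at 573 and 649 CPM. In the RXRa libraries at 0.544 and 0.550 CPM per kb, within the EGFP range of density, Meis2 was at 464 and 457 CPM, within its EGFP range of level. The high Meis2 values thus belonged to the RXRa libraries with few counts from silent genes. Ebf1 ran the other way, from 185 CPM in the library of lowest density to 255 CPM in that of highest. Isl1 showed no such order, at 5.24, 7.22, 6.35, 9.58, 6.27, 8.09, 6.33 and 7.08 CPM from the lowest density to the highest. Zfp503 was mixed, at 5.56 CPM in the library of lowest density, 3.29 and 7.16 CPM in those at 0.406 and 0.409 CPM per kb, and 4.19 CPM in that of highest. Counts of vector RXRa, from the lowest density to the highest, were 13017, 8478, 5719, 7836, 5284, 5108, 3032 and 2889. These counts are not scaled to library totals. Low density went with high vector counts, so a density covariate cannot separate the 2. The part of each in the members' levels was not tested.

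With the silent-gene density as a covariate, no member was called in D2 (edgeR adjusted p = 1 for each of the 10), Meis2 stood at 0.07 ± 0.12 and Six3 at 0.14 ± 0.13, and over all genes tested 0 were called and 1347 had an unadjusted p under 0.05. Without the 2 D2 RXRa libraries of lowest density, an alternative chosen after seeing the data, Meis2 stood at 0.56 ± 0.17 (edgeR adjusted p = 0.14) and no member was called. Without the D2 female library of 0.303 CPM per kb alone, no gene of 44402 was called and 12160 had an unadjusted p under 0.05. Meis2 then stood at 0.59 and Six3 at 0.46 (edgeR adjusted p = 0.059 for each). Divided by the density, Ebf1 had the same level in both arms, at 1.19 ± 0.07 times in D2 EGFP and 1.19 ± 0.06 times in D2 RXRa libraries, and Meis2 stood at 4.25 ± 0.66 and 8.40 ± 3.70 times. Genes of both projection neuron classes (Ppp1r1b, Gad1, Gad2, Rgs9 and Pde10a) summed to 1029 to 1650 CPM in D2 EGFP and 1144 to 2868 CPM in D2 RXRa libraries, with 5 of 5 called higher. Of 6 astrocyte genes 2 were called lower, and their sum was 133 to 196 CPM in D2 EGFP and 113 to 152 CPM in D2 RXRa libraries. Of 6 endothelial genes 2 were called lower, with sums of 249 to 289 and 222 to 289 CPM. Of 6 D1 genes 4 were called higher and 1 lower (141 to 178 and 137 to 258 CPM), and of 4 D2 genes 3 were called higher (753 to 1461 and 881 to 2728 CPM). Of the endothelial genes, Tek averaged 77.8 CPM in sorted and 17.8 CPM in bulk libraries, and Cldn5 averaged 0.43 and 61.5 CPM. Sums in the sorted libraries can hold counts like those of silent genes, so they are no measure of cell content. The part of these gene lists in the members' values was not tested.

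Per sex, the D2 effect of Meis2 was 0.86 ± 0.25 in females (432 against 785 CPM) and 0.61 ± 0.23 in males (473 against 720 CPM), and that of Six3 was 0.47 ± 0.20 and 0.64 ± 0.19. No gene passed the edgeR test in either sex, so the background was 0%; 7 members in females and 5 in males had an unadjusted p under 0.05, limma called none, and DESeq2 called 5 in females and none in males. Over all genes, 11080 in females and 8656 in males had an unadjusted p under 0.05 by edgeR, and DESeq2 called 3672 of 17497 genes in females and 23 of 37072 in males. Without the D2 female RXRa library of highest density 5 members and 6699 of 44444 genes were called in females by edgeR, and without the D2 male RXRa library of highest density 5 members and 5986 of 44366 genes were called in males. The male effect minus the female effect passed for no gene in D1 or D2 (0% of genes each).

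In D1, no gene passed the edgeR test for RXRa against EGFP (0% of 43902 genes, also per sex, with 3518 at an unadjusted p under 0.05 over both sexes), and DESeq2 and limma called no member. Meis2 ran from 298 through 413 to 671 CPM in D1 EGFP and from 390 through 613 to 777 CPM in D1 RXRa libraries, a log2 fold change of 0.47 ± 0.17 (edgeR adjusted p = 0.58). Foxp1 at 0.28 ± 0.12, Foxp2 at 0.26 ± 0.11 and Isl1 at 0.24 ± 0.09 were the other 3 members with an unadjusted p under 0.05. Sp9 and Ebf1, both at -0.01, had intervals of -0.27 to 0.25 and -0.12 to 0.09, and their signs changed with the scaling. No member had separate groups, against 0.0137% of genes. The D2 effect minus the D1 effect was 0.50 ± 0.19 for Six3, 0.40 ± 0.18 for Sp9, -0.34 ± 0.14 for Isl1 and -0.19 ± 0.07 for Ebf1. Each of these 4 had an unadjusted p under 0.05, each had an edgeR adjusted p of 0.60, and edgeR, DESeq2 and limma called no member (0% of genes by edgeR). Over all genes, 3609 of 43902 had an unadjusted p under 0.05 for this difference by edgeR.

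In bulk accumbens, the comparison of HSV-RXRa-GFP with HSV-GFP called Bcl11b and Foxp1 lower. Bcl11b was at 385, 370, 377 and 416 CPM in the GFP libraries and at 320, 339, 298 and 290 CPM in the RXRa libraries, a log2 fold change of -0.31 ± 0.07, or 0.81 times the GFP level (edgeR adjusted p = 0.036). Foxp1 was at 265, 273, 282 and 309 CPM under GFP and at 233, 244, 231 and 213 CPM under RXRa, a log2 fold change of -0.29 ± 0.06 (edgeR adjusted p = 0.043). All RXRa libraries lay below all GFP libraries for both genes. The 2 members called lower compare with 0.689% of genes called lower and 3.7% called in either direction. In bulk tissue, fewer cells of a type and less RNA per cell cannot be told apart.

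Six3 and Meis2 also had separate groups, so 4 of 10 members lay lower without overlap, against 6.54% of all genes. Six3 was at 91.2, 94.2, 84.6 and 104 CPM under GFP and at 80.4, 77.1, 72.3 and 80.0 CPM under RXRa, a log2 fold change of -0.27 ± 0.07 (edgeR adjusted p = 0.063). Meis2 was at 490, 478, 474 and 552 CPM under GFP and at 432, 421, 414 and 427 CPM under RXRa, a log2 fold change of -0.24 ± 0.06 (edgeR adjusted p = 0.068). DESeq2 called both, and 1619 of 17496 genes in all. Sp9 at -0.22 ± 0.09, Zfp503 at -0.19 ± 0.10 and Ebf1 at -0.36 ± 0.20 had overlapping groups and did not pass, and Isl1 at -0.03 (0.01 on library totals), Foxp2 at 0.02 and Mef2c at 0.02 lay near 0. The median over the members was -0.23, against -0.02 over all genes tested.

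The 2 calls in bulk were near the threshold. With any 1 of the 8 libraries left out, 0 or 1 member was called, against 9 of 18926 to 1016 of 18890 genes. The log2 fold changes were -0.36 to -0.28 for Bcl11b and -0.32 to -0.25 for Foxp1. Bcl11b kept its call without RXRa replicate 1 or 2 and Foxp1 without GFP replicate 1, and each lost it without any other library. Genes of both projection neuron classes summed to 3541 to 4222 CPM under GFP and 3270 to 3839 CPM under RXRa, with 5 of 5 lower and 0 called, and D2 genes summed to 1604 to 1897 and 1469 to 1634 CPM, with 4 of 4 lower and 1 called. Oligodendrocyte genes summed to 4587 to 5142 and 2751 to 4758 CPM, with 6 of 6 lower and 0 called. Endothelial genes summed to 232 to 294 CPM under GFP and 298 to 324 CPM under RXRa, with no overlap, 5 of 6 higher and 1 called higher. Astrocyte genes summed to 1863 to 2395 and 1959 to 2832 CPM, with 3 of 6 higher and 1 called higher. Genes of cortical excitatory neurons summed to between 7.01 and 718 CPM under GFP and between 68.1 and 544 CPM under RXRa. The GFP library at 718 CPM had the highest Mef2c (206 CPM) and the lowest Isl1 (13.6 CPM), Ebf1 (10.4 CPM), Sp9 (38.4 CPM), Six3 (84.6 CPM) and Zfp503 (44.2 CPM) of the 4 GFP libraries. Of the 4 RXRa libraries, that at 544 CPM had the lowest Sp9 (33.5 CPM), Six3 (72.3 CPM) and Zfp503 (38.9 CPM). The RXRa library at 460 CPM had the highest Sp9 (41.2 CPM), Six3 (80.4 CPM) and Zfp503 (50.4 CPM) of the 4. No gene of these lists was at 0 in all libraries of a group, and their part in the members' values was not tested.

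**Figure D4:**
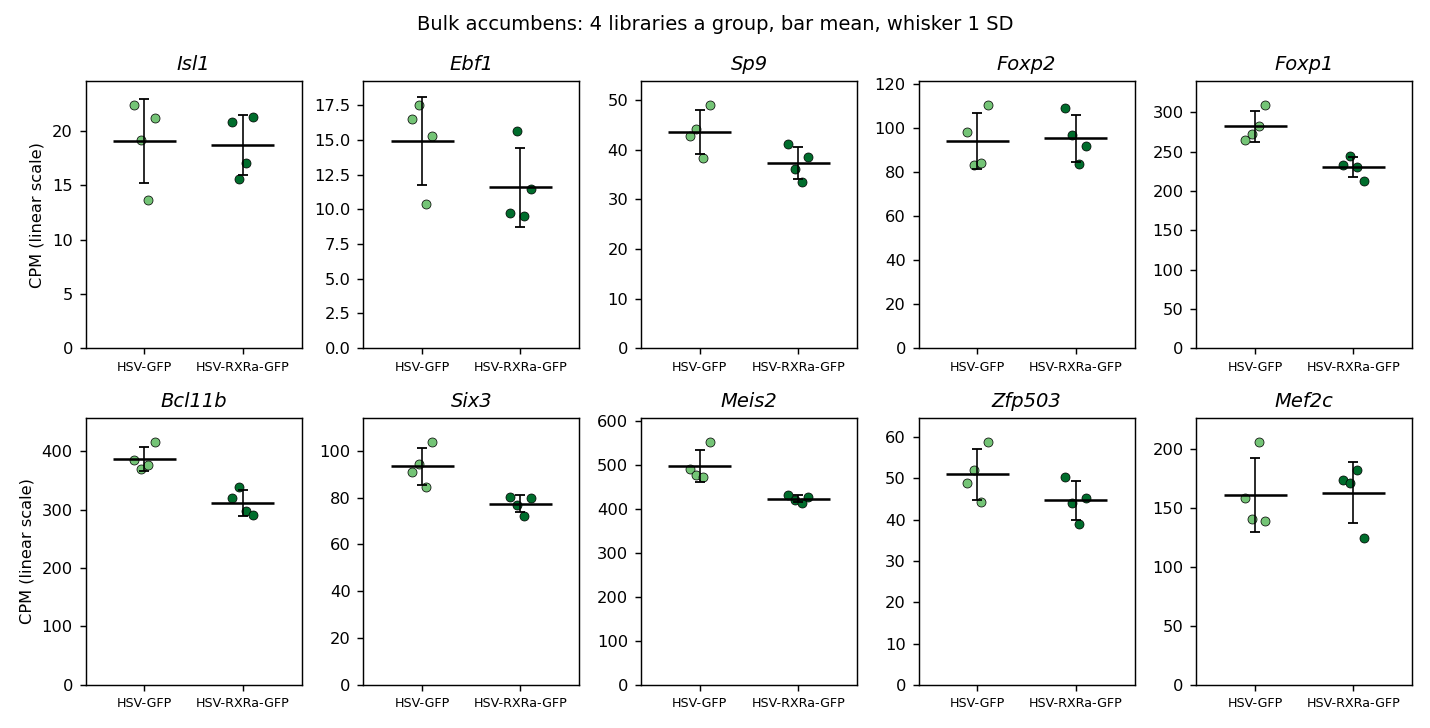
CPM of the 10 members in the 8 bulk libraries, on linear axes from 0; points are libraries, bars are means and whiskers 1 SD. Bcl11b, Foxp1, Six3 and Meis2 have all 4 HSV-RXRa-GFP libraries below all 4 HSV-GFP libraries.

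Set side by side, the RXRa effect estimated without a covariate was negative in bulk and positive in both sorted populations for 5 of the 10 members. The share of all genes with these signs was not counted. The tables were made from different vectors, tissue fractions and library kits and were tested separately. Bcl11b stood at -0.31 in bulk, 0.18 in D1 and 0.43 in D2, Foxp1 at -0.29, 0.28 and 0.46, Six3 at -0.27, 0.05 and 0.55, Meis2 at -0.24, 0.47 and 0.73, and Zfp503 at -0.19, 0.15 and 0.24 on the log2 scale. With the silent-gene density as a covariate, the D2 values of Bcl11b and Foxp1 were both -0.02 (0.09 and 0.12 with that density on the TMM scale). Zfp503 then stood at -0.095 in D2 and -0.017 in D1, and in D1 Bcl11b stood at -0.041 and Six3 at -0.14. Over both sexes Meis2 stayed positive under every other setting, at no less than 0.14 in D1 and 0.07 in D2. The D2 value of 0.07 came with the covariate, where no member was called. In D2 males alone Meis2 then stood at -0.0091. The sign was the same in bulk, D1 and D2 for Ebf1 (-0.36, -0.01 and -0.21), Foxp2 (0.02, 0.26 and 0.33) and Mef2c (0.02, 0.16 and 0.30). It changed for Ebf1 in D1 with the covariate (0.059). In bulk it changed for Foxp2 and Mef2c in fits that left out a library (lowest -0.043 and -0.047). The signs were mixed for Sp9 (-0.22, -0.01 and 0.39) and Isl1 (-0.03, 0.24 and -0.10). The difference between bulk and sorted effects was not tested.

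**Figure D5:**
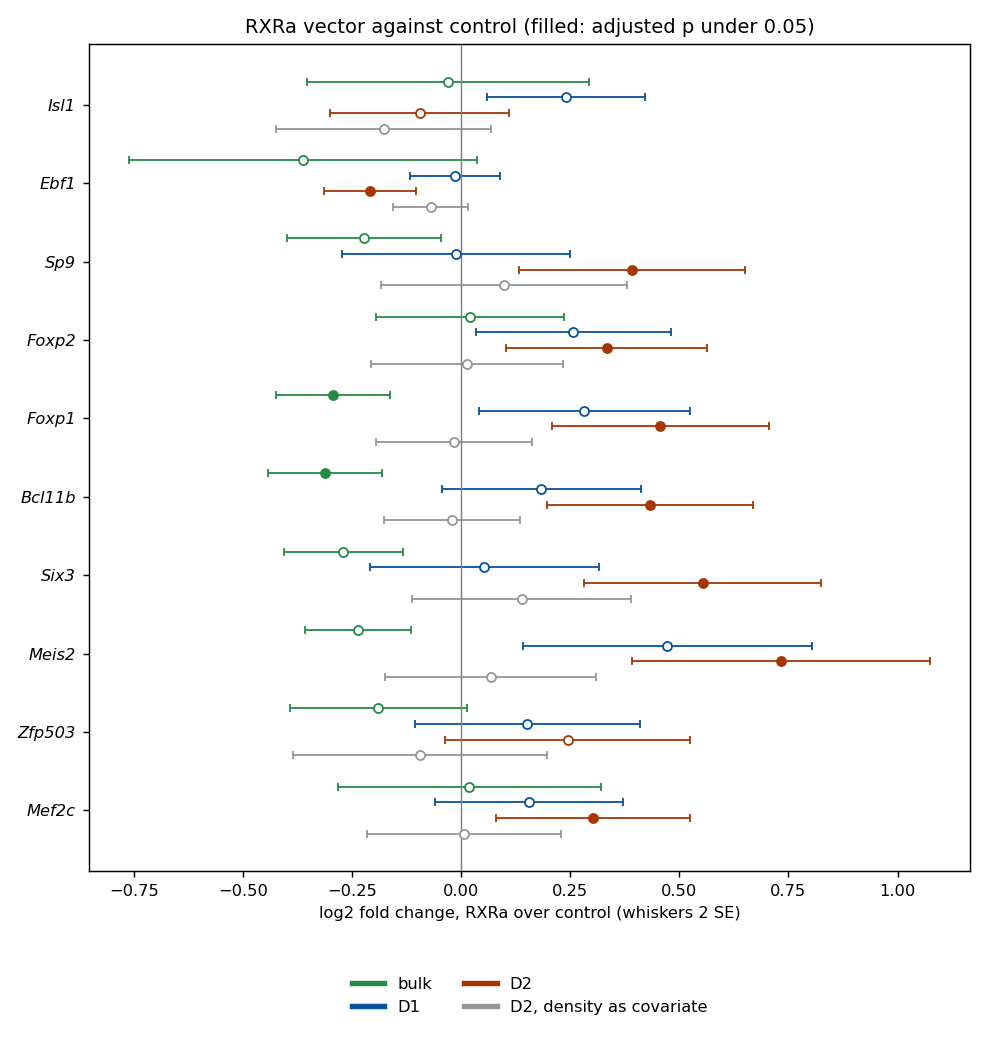
log2 fold change of RXRa over its control vector for each member in bulk, D1 and D2, and in D2 with the silent-gene density as a covariate; whiskers are 2 SE and filled points have an adjusted p under 0.05. Filled points are 2 in bulk, 0 in D1 and 8 in D2, and 0 in D2 with the covariate.

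Between males and females under EGFP, no member passed the edgeR test, against 4.43% of genes, and DESeq2 and limma called none. Isl1 was the only member with an unadjusted p under 0.05, at a log2 fold change of -0.19 ± 0.09 (means of 9.63 CPM in females and 8.43 CPM in males, edgeR adjusted p = 0.70). Over all genes, 2872 of 43902 had such an unadjusted p.

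Over the 35 sorted libraries, the genes whose log2(CPM + 1) most resembled each member's were found by Pearson's r among 32519 genes with a mean of at least 1 CPM. For Isl1 they were Pdyn, the D1 neuropeptide prodynorphin (r = 0.863), Sfxn1, also used as a D1 marker (0.839), and the long noncoding RNA Gm34557 (0.803). For Sp9 they were Adora2a (0.954) and Gpr6 (0.945), receptor genes used above to mark the D2 population, and B3gat1 (0.944). The first for Ebf1 was Mast4 (0.926), for Six3 Mfn2 (0.942), for Foxp1 Zswim6 (0.985), for Foxp2 Adarb2 (0.924), for Meis2 Plcl2 (0.988), for Mef2c Herc3 (0.947) and for Zfp503 Frat1 (0.891). Between members, Foxp1 and Meis2 had an r of 0.931 and Ebf1 and Six3 an r of -0.863. All of these libraries share the density differences given above, and the values describe likeness only.

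Close relatives of the members (Bcl11a, Foxp3, Foxp4, Ebf2, Ebf3, Ebf4, Isl2, Sp8, Six6, Meis1, Meis3, Zfp703, Mef2a, Mef2b and Mef2d) included no gene called between D2 and D1 under EGFP by edgeR, with 15 of 15 tested and 4 with an unadjusted p under 0.05. Among all genes, 4620 of 43902 had such a p. Ebf2, Isl2 and Six6 averaged 0.13, 0.07 and 0 CPM in bulk, against 94.9, 4.10 and 1.64 CPM in sorted libraries. Whether such sorted counts come from expression of the gene was not tested. Under RXRa 1 of 15 was called higher in D2, against 8.36% of all genes called in either direction. Called higher in D2 RXRa than in D2 EGFP were 3 of 15, against 14.9% of all genes. In bulk, where 12 could be tested, edgeR called 0; 2 had an unadjusted p under 0.05, and the median was 0.08. Among 13 other factors of striatal development or projection neurons (Dlx1, Dlx2, Dlx5, Dlx6, Gsx1, Gsx2, Ikzf1, Rarb, Rxrg, Tshz1, Zfhx3, Zfhx4 and Pbx3), edgeR called 0 between D2 and D1 under EGFP, where 1 had an unadjusted p under 0.05, and 2 were called higher in D2 under RXRa. Those 2 compare with the 8.36% of all genes called in either direction. The RXRa vector gave 5 higher and 1 lower calls among these 13 factors in D2, against 14.9% of genes called higher and 22.1% called at all. In D1 it gave no call, and 3 had an unadjusted p under 0.05. Bulk tissue gave 0 calls of 13. Of these factors 5 had an unadjusted p under 0.05, against 3990 of 18579 genes in bulk. Lower were 10 of 13, with a median of -0.20, against -0.02 over all genes.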

How the data were processed

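RNA was sequenced in 44 libraries of mouse nucleus accumbens. Poly(A) RNA was used for the 8 bulk libraries, per the labels' protocols, and the sorted libraries were made from ribosome-depleted total RNA with a stranded pico-input kit. Per the submitters' processing notes, reads were processed with FastQC, Trimmomatic, HISAT2, Picard and featureCounts from Subread on GRCm38. The annotation release, strand setting and counted feature are not given in the sources used here. The authors deposited raw counts per gene, which are the only unit used. IDs were matched to GENCODE M21, which names 55394 of 55487; 93 were not matched.

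The members and gene lists were chosen with earlier results of these data known. Genes were filtered with filterByExpr, scaled by TMM and tested with edgeR 4.0.16 (R 4.3.3, quasi-likelihood), with Benjamini-Hochberg adjustment over all genes tested. A gene was called at an adjusted p under 0.05. The 35 sorted libraries with a group were fitted together as 8 groups, and the bulk libraries apart, in 15 contrasts. DESeq2 1.42.0, limma voom 3.58.1, other scalings and filters, the replicate block, a silent-gene density covariate and leaving out each library in turn were alternatives. The scripts were tested on simulated data. Named genes are all 10 members and, of the 3 genes most like each, all 3 for Isl1 and Sp9 and the first for most others. Some genes of the lists and of these likenesses are not reported here, and list counts and sums leave them out. Library totals ranged from 12211655 to 29167142 counts; counting error is largest for Zfp503, Isl1, Sp9 and Six3.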

Additional observations from a re-analysis of the deposited data

Results flagged for a closer look

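In 4 of 100 pairs of member and group, 1 library lay far from the others of its group by Dixon's criterion, which chance meets in about 1 in 20 groups. Ebf1 was at 244 CPM in D1 female RXRa replicate 1, the lowest of 4, with the nearest other at 263 CPM. In the same library Zfp503 was at 5.74 CPM, the highest of 4, with the nearest other at 4.90 CPM. Foxp2 was at 552 CPM in D1 female RXRa replicate 2, the lowest of 4, with the nearest other at 722 CPM. In D1 male EGFP replicate 3 Foxp2 was at 855 CPM, the highest of 5, with the nearest other at 573 CPM.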

How the results depend on the processing

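Of the 10 members, 8 were called between D2 RXRa and D2 EGFP libraries, against 0 with the silent-gene density as a covariate, on the library total or the TMM scale, 0 without the 2 D2 RXRa libraries of lowest density, 5 on library totals (11391 genes) and 4 with only the groups compared (2547 of 39634 genes). No gene was called in the D2 fits that called 0 members. The TMM-scale covariate and the pair of libraries left out were chosen after seeing the data. Leaving out 1 library gave 0 to 8 calls: 0 without D2 female RXRa replicate 4 and 3 without D2 male RXRa replicate 5 (1633 of 44509 genes). There were 5 without D2 female EGFP replicate 1 (6420 of 44502 genes) or D2 female RXRa replicate 2 (8075 of 44484). The count was also 5 without D2 male EGFP replicate 1 (6483 of 43798 genes) or D2 male RXRa replicate 3 (6102 of 44510). Within D2 females the range was 0 to 5, and within D2 males 0 to 5, with 5 calls in females by DESeq2. With the covariate Bcl11b and Foxp1 stood at -0.021 and -0.017 and Zfp503 at -0.095 (-0.019 on the TMM scale), and Meis2 in D2 males at -0.0091.

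Between D2 and D1 EGFP libraries 4 members were called with the covariate (203 of 43902 genes), and 1 in females with it (35 genes). With only the groups compared, 1 was called in each sex (27 of 41274 genes in females, 40 of 37655 in males). Under RXRa 2 were called with only the groups compared (34 of 41715 genes). Zfp503 under EGFP stood at 0.0065 by DESeq2, 0.0073 with RLE factors, 0.000883 on library totals, 0.0030 with a mean CPM of at least 1, 0.00947 with only the groups compared, and 0.044 and 0.060 with either covariate; under RXRa it stood at -0.00590 on library totals and -0.034 with the covariate. In D1, RXRa against EGFP changed sign for Bcl11b (-0.041 and -0.010 with either covariate), Ebf1 (0.000215 by DESeq2, 0.00012 with RLE factors, 0.059 and 0.056 with either covariate), Six3 (-0.019 on library totals, -0.14 and -0.12 with either covariate), Sp9 (0.0014 with RLE factors, 0.0012 with a mean CPM of at least 1) and Zfp503 (-0.017 with the covariate). In bulk DESeq2 called 4 members and Isl1 stood at 0.0063 on library totals.

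With 1 library left out, D1 values ran from -0.031 to 0.00073 for Ebf1, -0.0097 to 0.094 for Six3 and -0.064 to 0.024 for Sp9. Bulk values ran from -0.043 to 0.10 for Foxp2, -0.16 to 0.053 for Isl1 and -0.047 to 0.16 for Mef2c, with 0 to 1 members called. D2 against D1 values ran from -0.0040 to 0.070 for Mef2c and -0.070 to 0.036 for Zfp503 under EGFP, -0.014 to 0.18 for Six3 in females, and -0.023 to 0.18 for Zfp503 under RXRa. With the replicate block, 0 members and 0 of 18579 genes were called in bulk (Bcl11b adjusted p = 0.126 and Foxp1 0.146 by edgeR). In D2 it called 6 members and 8535 of 43902 genes. Of same-numbered libraries, 2 of 4 bulk and 44 of 106 sorted pairs correlated over 0.1, with r from -0.60 to 0.57 in bulk. The mean r of sorted pairs was 0.0066 with the same number and -0.00071 with other numbers. Whether the numbers pair libraries cannot be decided here, as bulk has 4 such pairs and the sorted pairs mix all groups. The cause of these changes was not tested.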

Other observations

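A D2 female library whose title and vector label disagree was placed in no group. It held 15630501 counts. Its Isl1 level was 5.75 CPM (95 counts) and its Sp9 level 11.9 CPM (196 counts), or 1.06 and 1.94 times the silent-gene density of that library. Meis2 was at 442 CPM, 4.56 times the density, Six3 at 18.0 CPM and Ebf1 at 232 CPM. Foxp1 was at 608 CPM, Foxp2 at 486 CPM, Bcl11b at 119.6 CPM, Mef2c at 129 CPM and Zfp503 at 4.36 CPM.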
